A study of Mus musculus with 4 samples.

Results

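B1 elements are short interspersed nuclear elements (SINEs) of the rodent genome. They descend from 7SL RNA, the RNA of the signal recognition particle, carry an internal promoter for RNA polymerase III and encode no protein, so that their copying depends on the proteins of LINE1 elements. Most B1 copies lie within or near genes, and B1 sequence in poly(A) RNA is largely read as a piece of longer transcripts, in introns and untranslated regions, rather than as free B1 RNA. The count tables do not separate these sources. By naming convention PB1 names stand for the oldest copies (proto-B1), followed by B1F (fossil B1), B1_Mur (murine) and B1_Mus and B1_Mm (genus Mus). Copies were taken as B1 when the repeat name began with B1 or PB1. This gave 574440 copies of the 3658072 listed transposable element (TE) copies (15.7%), under 15 names.

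Embryonic stem cells (ESCs) of the mouse strain C57BL/6 were compared between genotypes, with 2 RNA-seq libraries of WT cells (line N12) and 2 of Terc knockout cells of the third generation (G3 Terc-/-, line F35). Terc is the RNA template of telomerase, and telomeres shorten over generations without it. All cells shared feeder cells, a medium with serum and leukemia inhibitory factor, and poly(A) enrichment. Each genotype was 1 line, so genotype and line cannot be told apart, and the labels do not say whether the replicates of a line were separate cultures, so that p-values may measure technical spread alone. In bulk RNA, fewer cells with a transcript and less of it per cell cannot be told apart either.

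Terc (identifier 21748) lies on chromosome 3 of GRCm38, from 96414437 to 96414833. It was not counted in either G3 Terc-/- library, where 0 allows up to 3 counts, and had 7 and 2 counts in WT. All 8 pluripotency markers were detected, with summed levels of 5383 and 5431 counts per 1000000 (CPM) in WT, against 6789 and 7079 CPM in G3 Terc-/- libraries, which did not overlap. All 10 fibroblast markers, which feeder cells express, were detected too, at 161 and 103 CPM in WT against 195 and 130 CPM in G3 Terc-/- libraries. The genotypes overlapped in this feeder signal, and the part of either marker list in the B1 counts was not tested. The libraries had 18047995 to 22520017 gene counts, and G3 Terc-/- replicate 2 was the shallowest. Counts of B1 copies varied beyond sampling noise between replicates, with a chi-square per copy of 1.47 between WT and 1.5 between G3 Terc-/- libraries.

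B1 copies took up a like part of the TE reads in both genotypes. B1 counts came to 577642 and 590169 in WT against 575890 and 509390 in G3 Terc-/- libraries. These made up 28.1% and 28.0% of the TE counts in WT against 27.9% and 28.2% in G3 Terc-/- ESCs. The G3 Terc-/- libraries lay on either side of the WT libraries, and the mean share was 28.05% ± 0.00946 (SD, n = 2) in WT against 28.05% ± 0.239 (SD, n = 2) in G3 Terc-/- ESCs, a difference of 0.00235 percentage points. Without the 22 TE copies of over 10000 counts, 5 of them B1 copies, the share was lower in G3 Terc-/- ESCs, with a difference of -0.817 percentage points. Relative to the gene counts, B1 counts amounted to 2.62% in both WT libraries, 2.63% in G3 Terc-/- replicate 1 and 2.82% in G3 Terc-/- replicate 2. The higher mean of G3 Terc-/- ESCs on that scale came from replicate 2, while replicate 1 lay just above both WT libraries. An exact permutation test of 2 against 2 libraries cannot go below a two-sided p of 0.33, so none was used for the shares.

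Reads were spread over many B1 copies, but unevenly. Of the 574440 copies, 132682 (23.1%) had at least 1 count in the 4 libraries together, and among the 3083632 other TE copies 13.0% had. A further limit of at least 5 counts left 48913 B1 copies (8.51%) for testing, with 93.1% of the 2253091 B1 counts, while 83769 copies with 1 to 4 counts stayed out. A tested copy had a median of 12 counts. The 100 copies with the most counts held 16.3% of all B1 counts, and 1926 copies held 50% of them.

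Summed by age group, the names of the genus Mus had the smallest share of detected copies, while single names of different ages overlapped. At least 1 count was found on 25.1% of PB1 copies, 22.1% of B1F copies, 24.5% of B1_Mur copies and 21.1% of B1_Mus and B1_Mm copies. Counts per listed copy were 5.01 for PB1, 3.92 for B1F, 3.76 for B1_Mur and 3.25 for the genus Mus, in the order of age, but without the copies of over 10000 counts B1F (3.67) came after B1_Mur (3.76). Among single names, PB1D9 stood highest with 31.4% of its copies detected and B1_Mm lowest with 18.4%, and B1_Mus2 (23.2%) lay above PB1D10 (22.8%) and B1F (21.2%). The study's methods counted uniquely aligned reads on single copies, and copy lengths are not in the tables, so these values are not per length and leave out reads that match several copies.

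**Figure D1:**
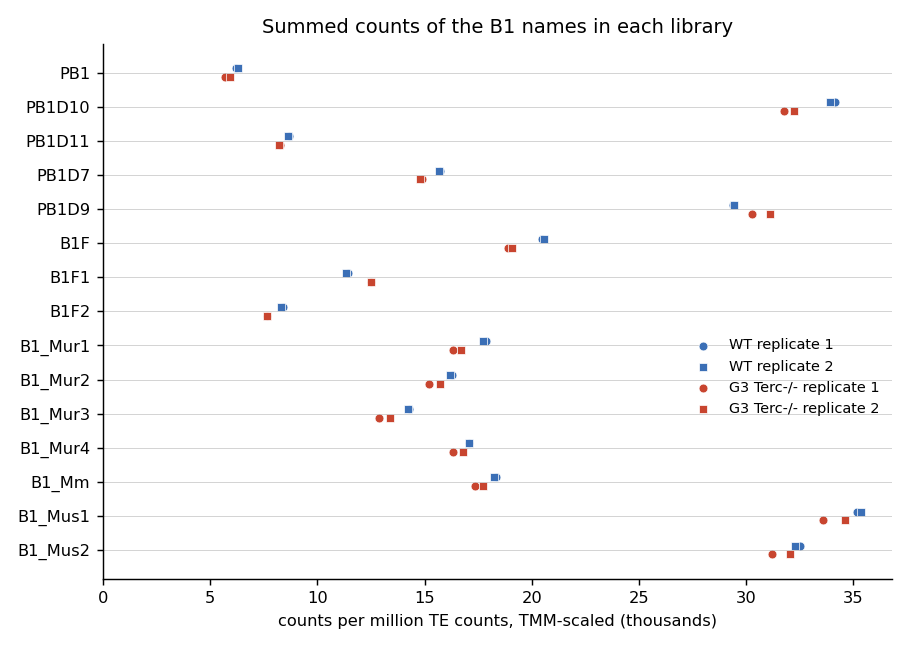
TMM-scaled CPM of the TE counts (x axis, in units of 1000 CPM) of each B1 name (y axis, oldest names at the top), with 1 point per library, blue for WT and red for G3 Terc-/- ESCs, circles for replicate 1 and squares for replicate 2. The red points lie close to the blue points in every name, to the right of them for PB1D9 and B1F1 and to the left for the other 13 names. Levels of different names are not per length.

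Every B1 name stayed within a narrow range of fold changes, from -0.12 to 0.13 on the log2 scale (G3 Terc-/- against WT). None of the 15 names passed the study's cutoffs for TE families, a fold change of 1.5 and an unadjusted P value of 0.05, in either direction, against 5.13% of the 917 tested families higher and 2.94% lower. The study used these cutoffs with DESeq2 on reads aligned to TE consensus sequences. Here counts of single copies were summed by name, so the measures differ. With edgeR's quasi-likelihood test 13 names had an unadjusted P value under 0.05. By adjusted p-value under 0.05, 1 name was higher and 8 were lower, where 13.2% of all families were higher and 11.6% lower. The genotypes did not overlap in any of the 15 names, and they did not overlap in 60.6% of the 917 families.

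Among the fossil names, B1F had 20495 and 20569 CPM in WT against 18901 and 19061 CPM in G3 Terc-/- libraries. B1F thus fell by 7.55%, with a log2 fold change of -0.11 ± 0.0200 (SE) and an adjusted p-value of 0.00268 in edgeR's quasi-likelihood test. B1F2 showed the same size of change, from 8400 and 8291 CPM to 7662 and 7673 CPM (log2 fold change -0.12 ± 0.0237, edgeR adjusted p = 0.00442). Both G3 Terc-/- libraries lay below both WT libraries for both names.

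Of the B1_Mur names, B1_Mur1 (log2 fold change -0.11) and B1_Mur3 (-0.12) passed the adjusted p-value, while B1_Mur2 (-0.07) and B1_Mur4 (-0.04) did not. B1_Mur3 counted 14288 and 14237 CPM in WT against 12860 and 13404 CPM in G3 Terc-/- libraries. Of the proto-B1 names, PB1 (-0.11), PB1D7 (-0.08), PB1D10 (-0.09) and PB1D11 (-0.07) were lower by adjusted p-value. None of the 3 names of the genus Mus was in edgeR, though 2 had an unadjusted P value under 0.05, with log2 fold changes of -0.06 for B1_Mm, -0.05 for B1_Mus1 and -0.03 for B1_Mus2. B1_Mus1, the name with the most copies and the most counts, had 35173 and 35340 CPM in WT against 33603 and 34609 CPM in G3 Terc-/- libraries.

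The 8 lower calls depended on the scaling. The fits above used TMM factors. Without such factors, all B1 copies together held a mean of 28.05% of the TE counts in both genotypes. Fold changes of single names on plain TE totals were not fitted. Scaling by the gene counts moved the median of all families by 0.07 on the log2 scale, after which 8 of the 15 B1 names were above 0 and no name was lower in edgeR by adjusted or by unadjusted P value. Relative to that shifted median of all families, 0.06, the median of the B1 names was still lower, at 0.00062. With a library left out, the number of names lower by edgeR's adjusted p-value was 0 without WT replicate 1 (5 by unadjusted P value), 2 without WT replicate 2, 10 without G3 Terc-/- replicate 1 and 13 without G3 Terc-/- replicate 2. The folds of the 8 names stayed close to those above without either WT library, with moves of at most 0.0095 on the log2 scale. The largest move was 0.031 without G3 Terc-/- replicate 1 and 0.027 without G3 Terc-/- replicate 2. Without each family's most abundant copy 12 B1 names were lower by adjusted p-value, and these included B1_Mur2 (-0.11), B1_Mur4 (-0.11), B1_Mm (-0.10) and B1_Mus1 (-0.07).

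**Figure D2:**
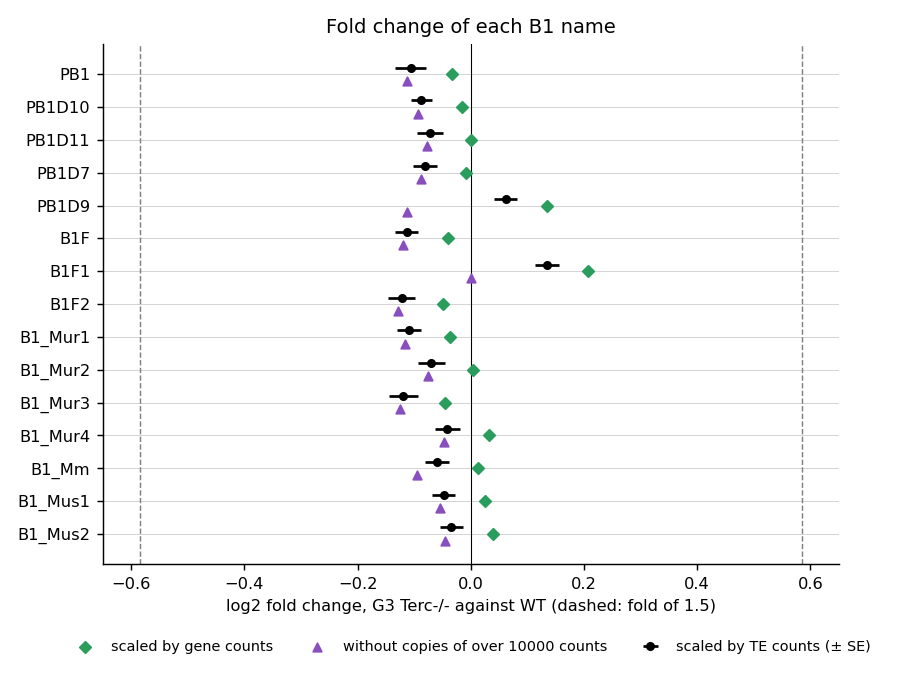
Log2 fold change of each B1 name, G3 Terc-/- against WT (x axis), with a fold of 1.5 as dashed lines. Black circles are scaled by TE counts with TMM factors and carry their SE. Green diamonds are scaled by gene counts, and purple triangles leave out TE copies of over 10000 counts. All points lie well inside the dashed lines, the green points are to the right of the black ones throughout, and PB1D9 moves from 0.06 to -0.11 without the most abundant copies.

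The 2 names with positive fold changes held abundant copies, and neither rise held without them. B1F1 had 11417 and 11356 CPM in WT against 12505 and 12495 CPM in G3 Terc-/- libraries, an increase of 9.78% (log2 fold change 0.13 ± 0.0217, edgeR adjusted p = 0.00158). A single copy, number 10588, held 21.2% of the B1F1 counts. With each family's most abundant copy left out, the log2 fold change of B1F1 was -0.0091. Without TE copies of over 10000 counts, which also leaves out copy 10588, it was 0.0011. PB1D9 was at 29392 and 29444 CPM in WT against 30291 and 31126 CPM in G3 Terc-/- libraries, with a log2 fold change of 0.06 (edgeR adjusted p = 0.0510). Its copies 15506 and 15507 held 12.8% and 12.7% of its counts. Without copies of over 10000 counts, PB1D9 was lower in G3 Terc-/- ESCs (-0.11, edgeR adjusted p = 0.00242), as were 11 of the 15 names by adjusted p-value.

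These copies were among the 5 B1 copies with the most counts. Copy 15506 of PB1D9 had 6300 and 6422 counts in WT against 9679 and 8397 counts in G3 Terc-/- libraries, a 1.53-fold increase (log2 fold change 0.61 ± 0.0698, edgeR adjusted p = 1.63e-09). Copy 15507 had nearly the same counts in every library, 6300 and 6363 in WT against 9298 and 8611 in G3 Terc-/- ESCs. Whether these consecutive copies share fragments was not tested. Copy 10588 of B1F1 went from 4013 and 4197 counts to 6528 and 5590 counts, a 1.58-fold increase (edgeR adjusted p = 3.96e-10). All 3 copies were higher in both G3 Terc-/- libraries, and all fell short of the fold of 2 set for single copies.

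The other 2 of the 5 copies did not pass the test. Copy 36712 of B1_Mm, with 15.9% of the counts of that name, had 5526 and 5760 counts in WT against 6198 and 5358 counts in G3 Terc-/- libraries (log2 fold change 0.14, edgeR adjusted p = 0.512). Copy 17036 of B1_Mus2 had 2549 and 2678 counts in WT against 3138 and 2310 counts in G3 Terc-/- libraries (log2 fold change 0.16, edgeR adjusted p = 0.512). The genotypes overlapped for copy 17036 in CPM, while for copy 36712 they overlapped in raw counts but not in CPM (2903 and 2993 in WT, 3288 and 3196 in G3 Terc-/- libraries).

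Among single B1 copies, fewer were higher in G3 Terc-/- ESCs than among TE copies at large. At a fold change of 2 and an unadjusted P value of 0.05, 1478 of the 48913 tested copies were higher (3.02%) and 1918 were lower (3.92%), against 4.7% and 3.87% of all 176114 tested TE copies. By adjusted p-value 146 copies were higher (0.298%) and 120 were lower (0.245%), against 0.634% and 0.366% of all tested copies. The other SINEs had like shares at the unadjusted cutoff, 2.63% higher and 3.93% lower for B2 and B3 copies and 2.96% and 3.92% for B4, ID and RSINE1 copies. The median log2 fold change of a tested B1 copy was -0.08, and that of all tested copies was 0.02. DESeq2 called 62 B1 copies higher and 48 lower by adjusted p-value. When either G3 Terc-/- library was left out, edgeR gave none of the 176114 TE copies, B1 or other, an adjusted p-value under 0.05, and the smallest was 0.680 without replicate 1 and 0.649 without replicate 2. At the unadjusted cutoff 609 and 673 B1 copies were still higher in these fits.

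Each name contributed to both directions. The share of tested copies that were higher at the unadjusted cutoff lay between 2.36% for B1F2 and 3.75% for B1_Mus1, below the 4.7% of all TE copies in each of the 15 names. The share of lower copies lay between 3.20% for B1_Mm and 4.98% for B1F2. Over the age groups, 2.81% of PB1, 2.81% of B1F, 2.81% of B1_Mur and 3.48% of genus Mus copies were higher. Lower copies made up 4.14%, 4.45%, 3.70% and 3.66% of these groups.

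**Figure D3:**
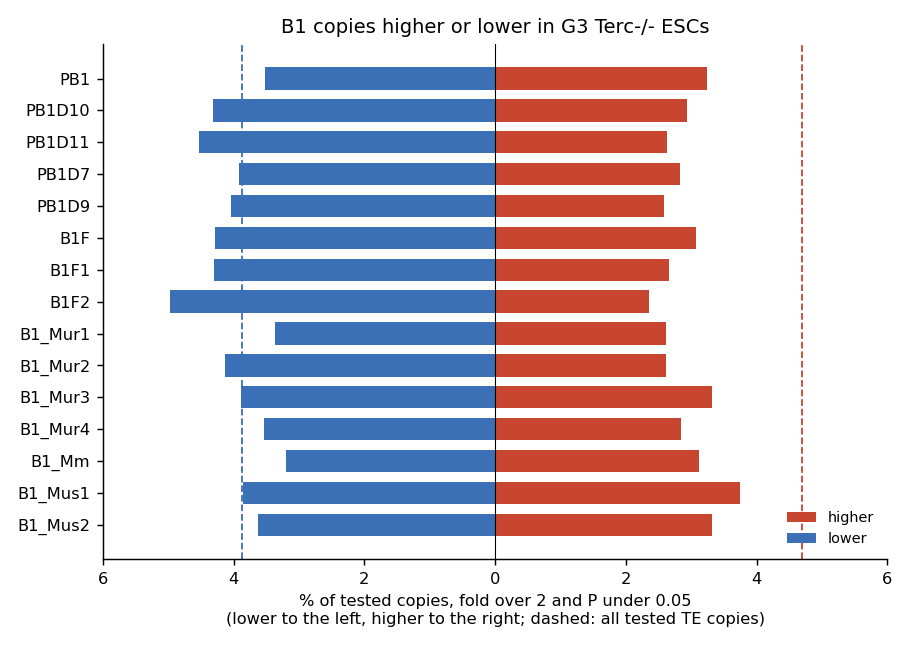
Percentage of the tested copies of each B1 name that were higher (red, to the right) or lower (blue, to the left) in G3 Terc-/- ESCs at a fold of 2 and an unadjusted P value of 0.05, with the percentages of all tested TE copies as dashed lines. All red bars end short of the dashed line at 4.7%, and blue bars lie on both sides of the dashed line at 3.87%.

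Calls depended on how many counts a copy had. Of the 20181 B1 copies with 5 to 9 counts, 425 (2.11%) were higher and 586 (2.90%) were lower at the unadjusted cutoff, against 3.13% and 2.75% of all TE copies with such counts, and none passed the adjusted p-value in edgeR. Of the 5814 copies with 50 to 499 counts, 99 (1.70%) were higher and 85 (1.46%) lower by adjusted p-value, against 3.10% and 2.22% of all TE copies with such counts. Of the 563 copies with at least 500 counts, 4 were higher and 4 were lower (0.710% each), against 2.04% and 3.5% of all TE copies.

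The 8 abundant copies, named here after their values were seen, were picked by a fold of 2 and the adjusted p-value. Their separate genotypes follow from that choice and are no further result. Copy 39632 of B1_Mur4 rose most, from 440 and 443 counts in WT to 1500 and 1432 counts in G3 Terc-/- libraries (3.57-fold, log2 fold change 1.84 ± 0.0951). Copy 25063 of B1_Mus2 rose from 1423 and 1432 counts to 2762 and 2703 counts (2.06-fold). The other two that rose were copy 13899 of B1F1 (2.83-fold) and copy 22428 of B1_Mus1 (2.15-fold). In the other direction, copy 6891 of B1_Mm went from 596 and 579 counts to 225 and 201 counts (2.57-fold lower). Copy 32482 of B1_Mur4 was 2.77-fold lower, copy 10323 of PB1 2.56-fold lower and copy 38326 of PB1D10 2.01-fold lower. B1_Mur4 thus held the copy that rose most and the copy that fell most of this set, while the sum of B1_Mur4 differed by -0.04 on the log2 scale.

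The 5 largest rises were found on copies with few or no counts in WT ESCs. Copy 7577 of B1F had 0 counts in both WT libraries against 89 and 93 in G3 Terc-/- libraries, at least 65.2-fold higher when 3 counts are set for the WT libraries together. Copy 85772 of B1_Mus1 had 0 counts in both WT libraries against 62 and 43 in G3 Terc-/- libraries, at least 37.6-fold higher. Both were thus seen only in G3 Terc-/- ESCs at this depth. Copy 15798 of PB1D10 had 1 and 1 counts in WT against 20 and 21 counts in G3 Terc-/- ESCs (log2 fold change 4.30 ± 0.735, edgeR adjusted p = 6.03e-05). Copies 71218 and 71214 of B1_Mus1 had log2 fold changes of 3.93 ± 0.479 and 3.87 ± 0.445. Their numbers are close to each other.

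The 5 largest falls, like the rises, were taken from copies with a mean of at least 10 counts, which leaves out deeper falls of copies with fewer counts. Copy 61938 of B1_Mus1 had 30 and 38 counts in WT against 1 and 2 counts in G3 Terc-/- libraries (log2 fold change -4.29 ± 0.596, edgeR adjusted p = 4.90e-07). Copy 37540 of PB1D10 had 94 and 101 counts in WT against 16 and 5 in G3 Terc-/- libraries, 8.58-fold lower (edgeR adjusted p = 4.02e-12). Copy 10626 of B1_Mur2 had 75 and 84 counts in WT against 11 and 9 in G3 Terc-/- libraries, 7.32-fold lower (edgeR adjusted p = 2.17e-10). In all 3 the highest G3 Terc-/- count lay below the lowest WT count, which follows from picking the largest falls. Copies 16067 and 16068 of PB1D9, with consecutive numbers, fell together, by 7.49-fold and 6.40-fold. Copy 16068 varied between the G3 Terc-/- libraries, with 3 counts in replicate 1 and 12 in replicate 2.

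Higher copies gathered in 1 stretch of B1_Mus1. Each copy carries a running number within its name, and the tables give no positions, so that numbers are used here only as an order. Of the 18 tested copies numbered 71155 to 71218, 12 were higher by adjusted p-value. All 18 had a positive log2 fold change, with a median of 3.39. Most of them had so few WT counts that they reached the count limit for testing only through G3 Terc-/- counts. Their shared sign and their median thus follow in part from that limit and are a description. The counts of the 64 copies listed in this stretch summed to 25 and 31 in WT, against 326 and 267 in G3 Terc-/- libraries. These 12 copies made up 40% of the B1_Mus1 copies called higher, and DESeq2 called 4 of them. The 100 numbers on each side summed to 134 and 152 counts in WT, against 148 and 130 in G3 Terc-/- libraries, with none of 14 tested copies called in edgeR by adjusted or unadjusted P value. The stretch was bounded by the copies called higher, so its sums are a description.

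**Figure D4:**
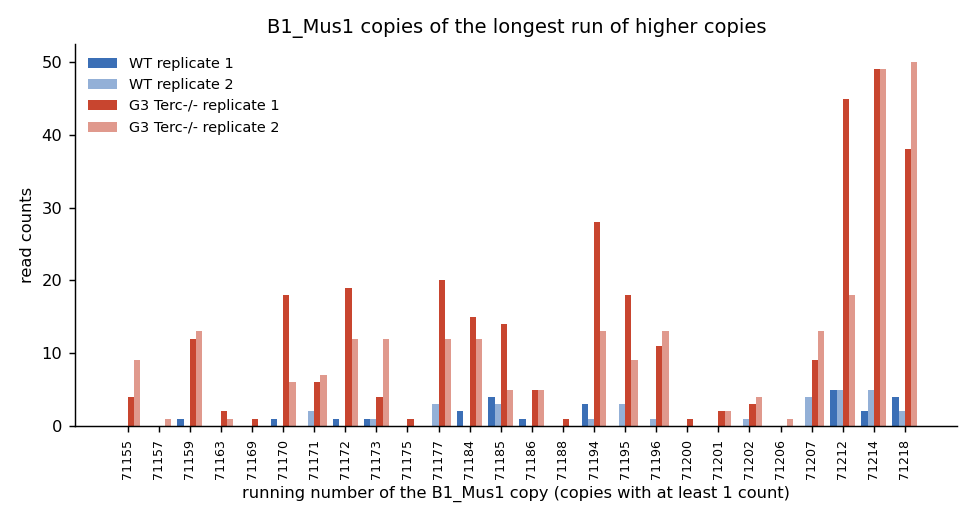
Read counts (y axis) of the B1_Mus1 copies numbered 71155 to 71218 that had at least 1 count (x axis, running number), with WT libraries in blue and G3 Terc-/- libraries in red, replicate 2 in the paler shade. WT bars reach at most 5 counts, and G3 Terc-/- bars reach 50 counts at the end of the stretch.

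Such a long run was seen once. With gaps of up to 20 numbers allowed, the 146 higher copies formed 126 separate runs, 117 of them single copies, and only 2 runs held 3 or more. The next longest was a run of 3 called copies in B1_Mus2, numbered 17352 to 17373, whose summed counts went from 83 and 95 in WT to 234 and 220 in G3 Terc-/- libraries. The 120 lower copies formed 111 runs, 9 of them of 2 copies and none longer. In PB1D9 the pair 26123 and 26124 rose from 5 and 30 counts to 147 and 120 counts, with WT replicate 2 well above WT replicate 1.

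Neighbours by number resembled each other. Over 15695 B1 copies with a mean of at least 5 counts, the log2 fold changes of copies with consecutive numbers had a Pearson r of 0.31 over 2740 pairs and a Spearman rho of 0.28. Without the called copies and the B1_Mus1 stretch the Pearson r was 0.25 over 2660 pairs. The Pearson r was 0.19 for copies 2 numbers apart, 0.15 at 10, 0.09 at 100 and 0.02 at 1000 numbers. These are descriptions across copies, which share the libraries. Of 948 consecutive pairs with a mean of at least 10 counts in each copy, 5 (0.527%) had counts within 10% of each other in all 4 libraries.

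Along the whole list, the B1 copies showed 1 low and 1 high stretch next to each other. When the numbers of each name were cut into 50 equal bins, the 757 tested copies between 32% and 34% of their lists had a median of -0.38 on the log2 scale, and the 995 copies between 34% and 36% had a median of 0.22. The other 48 bins had medians from -0.24 to 0.09. These 2 bins were picked as the lowest and the highest of the 50 by these medians, so the signs of single names in them are a description. Of the 15 names, 14 had a negative median in the first of these bins and 14 a positive one in the second. In the first, 10.04% of the copies were lower at the unadjusted cutoff and 4.10% higher. In the second, 3.92% were lower and 7.74% higher. Of the TE copies outside the SINE names, 6.32% were lower and 7.73% higher in the first bin, and 5.06% and 7.55% in the second.

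The same bins were the lowest and the highest for B2 and B3 copies, with medians of -0.40 and 0.17. B4, ID and RSINE1 copies had medians of -0.22 and 0.06 there, and their own lowest and highest bins lay elsewhere. With any 1 library left out, the B1 medians of the 2 bins kept their signs, from -0.39 to -0.27 and from 0.17 to 0.31. These fits reuse libraries by which the bins were picked, so the kept signs are no further result. The low bin rested on copies with few counts, since its 92 copies with at least 50 counts had a median of 0.02. In the high bin the 146 copies with at least 50 counts had a median of 0.32.

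Summed counts were lower in G3 Terc-/- libraries in the low bin and higher in the high bin, where the difference was larger. The bins were picked by the fold changes of these same copies, so the directions of the sums are a description. The tested copies of the low bin held 3643 and 3629 CPM in WT against 3346 and 3296 CPM in G3 Terc-/- libraries. Without the most abundant copy of the low bin these were 3418 and 3458 CPM in WT, against 3218 and 3189 CPM in G3 Terc-/- libraries. Those of the high bin held 5632 and 5639 CPM in WT against 7384 and 7453 CPM in G3 Terc-/- libraries. Copy 25063 of B1_Mus2, given above, lies in the high bin, and without it the bin held 4884 and 4894 CPM in WT against 5919 and 5840 CPM in G3 Terc-/- libraries. In 250 finer bins of 0.4% of each list, the lowest median was -0.79, between 33.2% and 33.6%. At the unadjusted cutoff 20.1% of its 144 copies were lower, against 5.67% of 282 TE copies outside the SINE names. The bin was picked by its B1 values and not by those of the other TE copies, so these shares are not a like comparison. Copy 10626 of B1_Mur2, one of the 5 largest falls, stood at 33.3% of its list. Copies 15506 and 15507 of PB1D9 and copy 10588 of B1F1, the abundant copies that rose by like amounts, stood at 53.6% and 53.8% of their lists. The bin from 52% to 54% had a B1 median of 0.08, and whether copies of different names lie near each other was not tested.

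**Figure D5:**
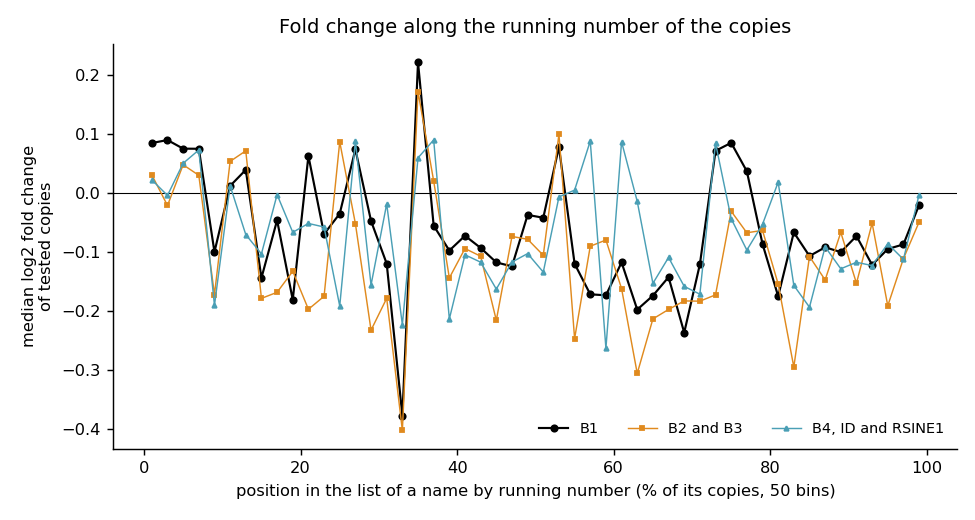
Median log2 fold change, G3 Terc-/- against WT, of the tested copies (y axis) in 50 bins of the running number within each name (x axis, percent of the list), for B1 (black), B2 and B3 (orange) and B4, ID and RSINE1 copies (blue). The B1 line falls to -0.38 between 32% and 34% and reaches 0.22 in the next bin, and the orange line has its lowest and highest points in the same bins.

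Genes that make, bind or silence SINE RNA were counted from 3 lists, beside a background of 21.7% of the 14896 tested genes higher and 21.8% lower by adjusted p-value. Of 26 genes of the RNA polymerase III machinery, 4 were higher and 6 were lower, with a median log2 fold change of -0.04. Polr3gl (identifier 69870, chromosome 3), which encodes the form of a polymerase III subunit that is common in differentiated cells, had 470 and 511 counts in WT against 304 and 233 counts in G3 Terc-/- libraries (log2 fold change -0.75 ± 0.100, edgeR adjusted p = 4.69e-08). Its counterpart of pluripotent cells, Polr3g, was lower as well (-0.25 ± 0.0585, edgeR adjusted p = 6.23e-04). Ssb, the La protein that binds the ends of new polymerase III transcripts, was lower too (-0.29). Polr3f, another subunit (0.35), and Gtf3c6, a part of the promoter factor TFIIIC (0.33), were higher. Leaving out 1 library gave 2 to 5 genes higher and 3 to 8 lower.

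Of the 21 tested genes for 7SL-type RNA binding and SINE RNA handling, 1 was higher and 4 were lower, with a median log2 fold change of 0.01. Upf1, a helicase of nonsense-mediated decay and Staufen-mediated decay, had 4591 and 4663 counts in WT against 3481 and 2767 in G3 Terc-/- libraries (log2 fold change -0.45 ± 0.0518, edgeR adjusted p = 1.66e-09). Srp68, a protein of the signal recognition particle (-0.38), Nono, a paraspeckle protein (-0.22), and the RNA editing enzyme Adarb1 (-0.41) were lower. Mov10, a helicase that restrains retrotransposons, was the 1 that was higher (0.15), and this call was lost without either WT library, without G3 Terc-/- replicate 1 and with DESeq2, at log2 fold changes of 0.12 to 0.18.

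Of the 24 genes for chromatin repression of SINEs and other repeats, 4 were higher and 8 were lower, with a median log2 fold change of -0.05. The DNA methyltransferase gene Dnmt3b (identifier 13436, chromosome 2) had 11230 and 11596 counts in WT against 5129 and 4405 in G3 Terc-/- libraries (log2 fold change -1.13 ± 0.0492, edgeR adjusted p = 1.59e-22). Cbx3, which encodes a protein of the HP1 family that binds methylated histone H3 (identifier 12417, chromosome 6), fell by 1.24 on the log2 scale, from 3400 and 3708 counts to 1427 and 1318 counts (edgeR adjusted p = 9.09e-21). Of the 22 other tested genes within 2 Mb of Cbx3, 11 were lower and 0 higher by edgeR's adjusted p-value, with a median log2 fold change of -0.76, and DNA copy number was not measured in these libraries. The Cbx3 relative Cbx1 (-0.59) and Dnmt3a (-0.50) were lower, while Trim28, the corepressor of KRAB zinc finger proteins (0.41), and Dnmt3l, the cofactor of the methyltransferases (0.31), were higher. Dnmt3b and Cbx3 were the 2 genes of this list past a fold of 2.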

How the data were processed

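RNA was sequenced as 150 bp paired-end reads. The submitters' processing notes name Trim Galore, STAR, featureCounts and the build mm10, with no versions, and the strand setting is not given in the sources used here. The authors deposited whole-number counts per gene and per TE copy without normalization, from uniquely aligned reads for single copies according to the study's methods. Of 24116 gene identifiers, 24061 were matched to a symbol in RefSeq's annotation of GRCm38.

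From these counts, B1 copies were summed by name, and all families (filterByExpr, 917 of 1072), all copies with at least 5 counts over the 4 libraries (176114) and all genes (filterByExpr, 14896) were fitted with edgeR 4.0.16 in R 4.3.3 (TMM, quasi-likelihood test, genotype as sole factor). CPM values are TMM-scaled, for copies and bins per 1000000 counts of tested copies. P-values were adjusted by the Benjamini-Hochberg method over each whole table. The cutoffs were those of the study, a fold of 1.5 for families and 2 for copies at P 0.05. For families the study used reads aligned to consensus sequences, not sums of single copies. Intervals and the limit of 3 counts for a count of 0 cover counting error only, and the precision of each comparison is set by 2 libraries per genotype. The fits were tested on simulated counts, where the copy fit missed part of the changed copies by adjusted p-value.

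Named are Terc, every B1 name, the 5 copies with the most counts, the 5 largest changes in each direction among copies with a mean of at least 10 counts and an adjusted p under 0.05, and up to 4 genes per list with the smallest p. Polr3g, Mov10, Trim28, Dnmt3l and the 8 abundant copies were added after their values were seen. The members and lists were chosen with earlier results of these data known, and the runs, the neighbour comparison with and without called copies, the genes around Cbx3, the finer bins and the removal of 2 copies per name were chosen after seeing the data. Alternatives were DESeq2 1.42.0, its size factors in edgeR, scaling by gene counts, other filters, abundant copies left out, the replicate number as a block and each library left out. Srp54c was not among the matched genes.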

Additional observations from a re-analysis of the deposited data

How the results depend on the processing

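The count of 0 B1 names past a fold of 1.5 held under all alternatives run. The count of names higher by adjusted p-value (1) became 2 with DESeq2's size factors and without the filter, 0 without copies of over 10000 counts or without each family's most abundant copy, and 1 to 2 with a library left out. The count lower (8) became 0 under gene-count scaling and 0 to 13 with a library left out. Gene-count scaling turned PB1D11 (to 0.00062), B1_Mur2 (0.0034), B1_Mur4 (0.032), B1_Mm (0.013), B1_Mus1 (0.025) and B1_Mus2 (0.039) positive on the log2 scale. PB1D9 turned to -0.11 without copies of over 10000 counts and to -0.027 without each family's most abundant copy. B1F1 was at 0.0011 and -0.0091 in these fits. A further fit left out the 2 copies with the most counts of B1 names only, and other families kept theirs. There PB1D9 was at -0.11 and B1F1 at -0.019. The share of TE counts on B1 copies moved to a difference of -0.817 percentage points without copies of over 10000 counts.

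For copies at the unadjusted cutoff, 1478 higher and 1918 lower became 422 and 451 with DESeq2, 394 and 501 with filterByExpr, and 609 to 1246 and 1274 to 1567 with a library left out. By adjusted p-value, 146 higher and 120 lower became 62 and 48 with DESeq2, 0 to 97 and 0 to 73 with a library left out, and the lower count became 232 with filterByExpr, where fewer copies were tested. Leaving out any library left 1 library of that genotype, which is assumed to vary like those of the other genotype. The lowest counts by adjusted p-value came from leaving out a G3 Terc-/- library rather than a WT library. The 13 named copies that had passed the adjusted p-value kept their direction with any library left out. With a library left out, the RNA polymerase III list gave 2 to 5 genes higher and 3 to 8 lower, and the 7SL list 0 to 2 higher. The cause of these moves was not tested.

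The replicate numbers did not pair the libraries, with a correlation of the deviations of replicate 1 from the group means of 0.02 over B1 copies, -0.05 over families and 0.11 over genes. With the replicate number as a block, 4 names were lower, 922 copies were higher and 1107 lower at the unadjusted cutoff, 3 genes of the 7SL list were higher, and 1 name was higher.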
